A study of Mus musculus with 6 samples.

Results

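The 10 genes described here encode lipoprotein lipase and proteins that mature, carry, inhibit or act beside it when fat cells take lipid from lipoproteins. They are Lpl, Gpihbp1, Lmf1, Angptl4, Apoe, Apoc1, Vldlr, Lrp1, Cd36 and Apod, chosen by name for what their products are known to do. No measured value enters the rule, although earlier results of these data were known when it was made. All 10 were found among the 35122 genes of the deposited table, and all 10 had enough counts to be tested. RNA of adipocytes from epididymal fat, the pad beside the testis, was sequenced in 3 control and 3 aPU.1KO mice, to ask what changes in these cells when the transcription factor PU.1 is removed from them. Control mice were PU.1 fl/fl: both alleles of Spi1, the gene of PU.1, had loxP sites around an exon, and no Cre was present, and the study describes its controls as littermates. The aPU.1KO mice carried the same PU.1 fl/fl alleles together with AdipoqCre, a Cre recombinase driven by the adiponectin promoter, which is active in adipocytes. All were male C57BL/6 mice on standard chow, aged 10 to 11 months by their labels. The adipocyte fraction is the layer that floats after collagenase digestion and slow centrifugation, and no sorting of cells is described, so other cells of the pad may be part of it.

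Lipoprotein lipase is made by adipocytes, folded with the help of lipase maturation factor 1 (Lmf1) and carried by GPIHBP1 to the wall of the capillary, where it hydrolyses the triglyceride of chylomicrons and very low density lipoprotein. ANGPTL4, which adipocytes secrete, inhibits the enzyme, most of all in fasting. The fatty acids set free enter the cell with the help of CD36, while the remnant particles carry apolipoprotein E, a ligand of the receptors encoded by Vldlr and Lrp1.

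Each mouse gave 1 library, with 20550252 to 69283842 counts, and control library 1 was the deepest. Values below are TMM-normalized counts on the CPM scale (reads of a gene scaled to the size of its library), and each group's mice bear the numbers 1 to 3. Spi1 was at 24.3, 6.35 and 26.7 CPM in control mice 1, 2 and 3 and at 3.20, 1.22 and 4.17 CPM in the aPU.1KO mice, so that control mouse 2 stood closest to the aPU.1KO group, and edgeR's quasi-likelihood test gave Spi1 an adjusted p of 0.0788. That test, with Benjamini-Hochberg adjustment over 13925 genes, called 33 genes (0.237%) at an adjusted p under 0.05. In aPU.1KO adipocytes 8 of these were higher (0.0575%) and 25 were lower (0.18%). The labelled cell type was checked on its markers: the summed level of 10 adipocyte genes was 29226 to 32053 CPM in the control mice and 35309 to 41381 CPM in the aPU.1KO mice, and Adipoq and Plin1, which encode adiponectin and perilipin 1, were at 2448 to 3943 CPM and 2042 to 2669 CPM over the 6 libraries. Of these 10 genes 8 were wholly higher in aPU.1KO mice and 1, Lep, which encodes leptin and is named after its values were seen, was wholly lower (log2 fold change -0.77). For them edgeR made 0 calls, an unadjusted p under 0.05 took in 7 higher and 1 lower (11.9% and 13.7% of all genes), and DESeq2 called 8 higher (3.69% of all genes). Over all genes 16.7% were wholly higher and 15.5% wholly lower. Other cells were present as well. The sum of 11 macrophage genes was 426 to 1455 CPM in control mice, lowest in control mouse 2, and 199 to 293 CPM in aPU.1KO mice. The sum of 10 stromal progenitor genes was 1827 to 2336 CPM against 1002 to 1504 CPM, that of 10 endothelial genes 700 to 1008 CPM against 416 to 910 CPM, and that of 6 mural genes 473 to 709 CPM against 374 to 505 CPM. In bulk RNA, fewer cells of a type and less RNA per cell cannot be told apart.

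None of the 10 genes passed edgeR's test at an adjusted p under 0.05 (0 of 10, against 0.237% of all genes tested). At an unadjusted p under 0.05 the same test took in 4 of them: Apoc1, Apoe and Lmf1, which were higher in aPU.1KO adipocytes, and Lrp1, which was lower. This compares with 25.7% of all genes tested. DESeq2, the test named in the study's methods, called 3 of the 10 at an adjusted p under 0.05, with Apoc1 and Apoe higher and Lrp1 lower, against 11.5% of the 16280 genes to which it gave an adjusted p (3.69% higher and 7.78% lower). In 8 of the 10 genes no aPU.1KO value fell within the range of the control values, 5 of them higher and 3 lower, while 32.1% of all genes tested were separated in this way (16.7% higher and 15.5% lower). The median log2 fold change of the 10 genes was -0.01, beside 0.01 for all genes tested. The estimates lay on both sides of 0, with Lpl, Lmf1, Apoe, Apoc1 and Cd36 above it and Gpihbp1, Angptl4, Vldlr, Lrp1 and Apod below it.

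**Figure D1:**
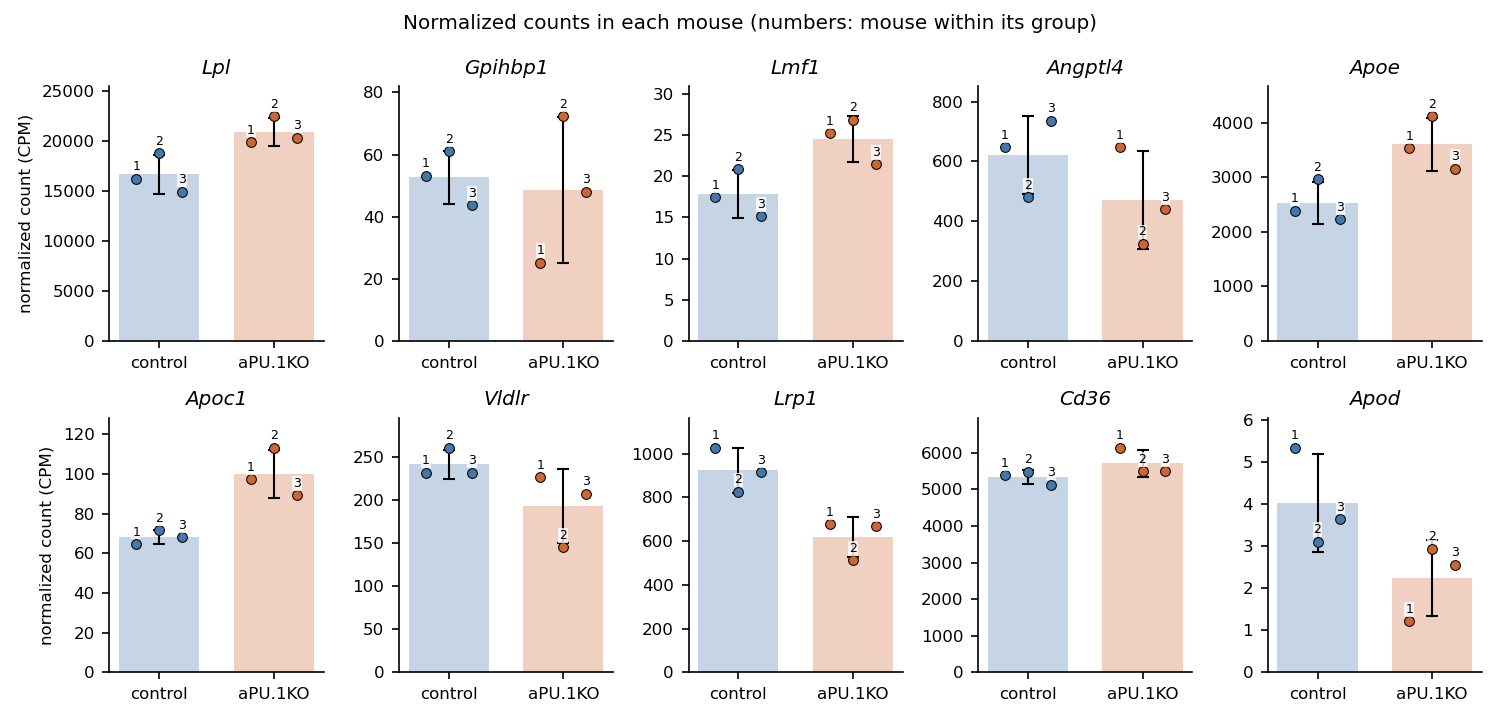
Normalized counts (CPM, linear axis from 0, a separate scale for each gene) of the 10 genes in 3 control and 3 aPU.1KO mice; bars are group means, error bars are standard deviations and each numbered point is 1 mouse. The points of the groups overlap for Gpihbp1 and Angptl4 and are separate for the other 8 genes, narrowly so for Cd36.

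Lpl (ENSMUSG00000015568; chromosome 8, 68880491 to 68907448, plus strand, GRCm38) was the most abundant of the 10. It stood at 16235, 18834 and 14955 CPM in control mice 1, 2 and 3 and at 19936, 22517 and 20360 CPM in aPU.1KO mice 1, 2 and 3. All 3 aPU.1KO mice were above all 3 control mice, with control mouse 2 the nearest to them. The mean was 16675 ± 1977 CPM (SD, n = 3) in control and 20938 ± 1384 CPM (SD, n = 3) in aPU.1KO mice. The log2 fold change was 0.33 (standard error 0.20), and neither edgeR's quasi-likelihood test (adjusted p = 0.334) nor DESeq2 (adjusted p = 0.0824) called it. Leaving out any 1 of the 6 mice kept the log2 fold change of Lpl between 0.25 and 0.41.

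Lmf1 (ENSMUSG00000002279; chromosome 17, 25579085 to 25662826, plus strand) encodes the membrane protein of the endoplasmic reticulum without which lipoprotein lipase does not mature. Its level was 17.4, 20.9 and 15.1 CPM in the control mice and 25.2, 26.8 and 21.4 CPM in the aPU.1KO mice. The groups were separate by a small margin, between control mouse 2 and aPU.1KO mouse 3. Means were 17.8 ± 2.89 and 24.5 ± 2.79 CPM (SD, n = 3 each), and the log2 fold change of 0.46 (standard error 0.15) was called neither by edgeR's quasi-likelihood test (adjusted p = 0.120) nor by DESeq2 (adjusted p = 0.0774). Lpl and Lmf1 were both wholly above the controls in aPU.1KO mice, as were 16.7% of all genes tested, and neither was called.

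Gpihbp1 (ENSMUSG00000022579; chromosome 15, 75596628 to 75599481, plus strand) encodes the protein of capillary endothelial cells that holds the lipase, and adipocytes are not known as its source. It was measured at 53.2, 61.0 and 43.7 CPM in the control mice and at 25.2, 72.4 and 48.1 CPM in the aPU.1KO mice. The lowest and the highest of the 6 values were both from aPU.1KO mice, mouse 1 and mouse 2. Group means of 52.6 ± 8.65 and 48.6 ± 23.6 CPM (SD, n = 3 each) gave a log2 fold change of -0.11 ± 0.35 (SE, edgeR adjusted p = 0.860). Without aPU.1KO mouse 1 the log2 fold change of Gpihbp1 was 0.19, so its direction rests on that mouse, in which the endothelial sum was also at its lowest, 416 CPM. Relative to Pecam1, a general endothelial gene, in the same library, Gpihbp1 had a log2 ratio of -1.39, -1.35 and -1.32 in the control mice and of -1.40, -0.83 and -0.80 in the aPU.1KO mice. In aPU.1KO mouse 1 this ratio was close to that of the control mice, and in the other two it was higher, a mean difference of 0.34 that an exact permutation test did not separate from 0 (two-sided p = 0.4, 0.55 after Benjamini-Hochberg adjustment over 11 ratios). An exact test of 3 against 3 mice cannot give a two-sided p below 0.1.

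Angptl4 (ENSMUSG00000002289; chromosome 17, 33773750 to 33781830, minus strand), the secreted inhibitor, was at 648, 481 and 736 CPM in the control mice. In aPU.1KO mice 1, 2 and 3 it was at 647, 325 and 441 CPM. The groups overlapped, because aPU.1KO mouse 1 was level with control mouse 1, and mouse 2 was the lowest of its group on both sides. The means were 622 ± 130 and 471 ± 163 CPM (SD, n = 3 each), with a log2 fold change of -0.40, a standard error of 0.27 and an edgeR adjusted p of 0.391. The log2 ratio of Angptl4 to Lpl within a library, which does not depend on how libraries are scaled, was -4.65, -5.29 and -4.34 in control mice and -4.94, -6.12 and -5.53 in aPU.1KO mice. The means differed by -0.77 on the log2 scale, again with overlapping groups (exact permutation test, two-sided p = 0.2, adjusted 0.3667). For Gpihbp1 to Lpl the mean log2 ratios were -8.31 in control and -8.88 in aPU.1KO mice (difference -0.56, exact permutation p = 0.2, adjusted 0.3667).

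Apoe (ENSMUSG00000002985; chromosome 7, 19696109 to 19699188, minus strand) encodes the apolipoprotein that both adipocytes and macrophages secrete. Its values were 2384, 2970 and 2232 CPM in control mice and 3530, 4119 and 3157 CPM in aPU.1KO mice. The lowest aPU.1KO mouse, mouse 3, was above the highest control mouse, mouse 2. Means of 2529 ± 390 and 3602 ± 485 CPM (SD, n = 3 each) gave a log2 fold change of 0.51 (standard error 0.17), which DESeq2 called (adjusted p = 0.0276) and edgeR's quasi-likelihood test did not (adjusted p = 0.130). Over the alternative settings and with each mouse left out, the adjusted p of Apoe ran from 0.0276 to 0.44, the highest value being edgeR's without control mouse 1. Between the groups, Apoe was higher where the macrophage sum was lower, and within each group mouse 2 had the lowest macrophage sum and the highest Apoe, while mouse 3 was below mouse 1 in both measures. The log2 ratio of counts of Apoe to those of the macrophage gene Cd68 was 4.51, 6.99 and 4.50 in control mice and 7.99, 8.67 and 7.69 in aPU.1KO mice, a mean difference of 2.78 with no overlap (exact permutation p = 0.1, adjusted 0.275), and of 3.61 without control mouse 2. Most of it lay in the denominator, since Cd68 had a log2 fold change of -2.54. The log2 ratio of Apoe to Adipoq was -0.04, 0.06 and -0.27 against -0.16, 0.26 and -0.09, overlapping groups that differed by 0.08 (exact permutation p = 0.7). Control mouse 2, with the fewest macrophage transcripts of its group, was the control with the most Apoe, and the part of macrophages in the level of Apoe was not tested.

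Apoc1 (ENSMUSG00000040564; chromosome 7, 19689481 to 19692660, minus strand) lies 3448 bases from Apoe on the same strand and encodes a small apolipoprotein that slows the lipase and the binding of particles to receptors. It was at 64.8, 71.7 and 68.3 CPM in the control mice and at 97.4, 113 and 89.3 CPM in the aPU.1KO mice. The gap between the groups was wide against the spread of the control mice, and the means were 68.2 ± 3.46 CPM and 100 ± 12.2 CPM (SD, n = 3 each). Of the 10 genes Apoc1 had, by edgeR, the highest log2 fold change and the smallest standard error, 0.55 and 0.10. By DESeq2 the standard error of Cd36 was smaller, 0.09 against 0.13 for Apoc1. DESeq2 called it (adjusted p = 0.000887) and edgeR's quasi-likelihood test did not (adjusted p = 0.0729), although without control mouse 2 edgeR gave it an adjusted p of 0.0397 and called it. Without control mouse 1 the adjusted p of Apoc1 from edgeR was 0.313, at a log2 fold change of 0.50. Within libraries the log2 ratio of Apoc1 to Apoe was -5.20, -5.37 and -5.03 in control mice and -5.18, -5.18 and -5.14 in aPU.1KO mice. The group means of that ratio, -5.20 and -5.17, differed by 0.03 (exact permutation p = 0.7), and without control mouse 2 the difference was -0.05.

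Other genes stand next to Apoe on chromosome 7. Of 5 listed neighbours, none passed edgeR's test, adjusted or at an unadjusted p under 0.05, and none passed DESeq2. Over all genes these took in 0.237%, 25.7% and 11.5%. Tomm40, which encodes a channel of the mitochondrial outer membrane, was higher in all aPU.1KO mice, at 45.5 to 46.2 CPM where controls had 41.1 to 44.0 CPM. Its log2 fold change of 0.10 became -0.02 when libraries were scaled by their totals alone. Apoc2, which encodes the cofactor that lipoprotein lipase requires, was expressed in the control mice at 1.78 to 2.14 CPM and in the aPU.1KO mice at 1.75 to 3.07 CPM, with overlapping groups.

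Lrp1 (ENSMUSG00000040249; chromosome 10, 127538161 to 127621148, minus strand) encodes a large endocytic receptor of remnants and many other ligands, found on adipocytes, macrophages and fibroblasts. It was measured at 1028, 826 and 916 CPM in control mice and at 677, 513 and 668 CPM in aPU.1KO mice. Every aPU.1KO mouse was below every control mouse, and again control mouse 2 was the nearest of its group. Means of 923 ± 101 and 619 ± 92.2 CPM (SD, n = 3 each) gave a log2 fold change of -0.58 (standard error 0.15). DESeq2 called Lrp1 lower (adjusted p = 0.00447), edgeR's quasi-likelihood test did not (adjusted p = 0.0892), and the adjusted p over all settings ran up to 0.354, edgeR's value without control mouse 1. Pdgfra, a gene of stromal progenitors, was lower still, at 38.7, 19.2 and 36.1 CPM against 9.25, 10.5 and 12.4 CPM. The log2 ratio of Lrp1 to Pdgfra was thereby higher in aPU.1KO mice, at 6.19, 5.61 and 5.75 against 4.73, 5.43 and 4.66 (difference 0.91, exact permutation p = 0.1, adjusted 0.275). The macrophage and stromal sums were lower in aPU.1KO mice as well, and their part in the level of Lrp1 was not tested.

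PU.1 binds DNA as a member of the ETS family, whose sites hold GGAA, and promoter windows of the RefSeq tables (build GRCm38.p6) were read for the genes above. Windows of 250 bases ending at an annotated start were found for 6 of the 10 genes, 9 windows in all, and Lpl, Gpihbp1, Angptl4 and Apoc1 had none. Those of Apoe, at its first start, and of Lrp1 are shown because these genes differed in opposite directions by DESeq2. Each is written 5′ to 3′ on the strand of the gene, with the letters GGAA or their reverse complement TTCC in capitals.
Apoe, chr7:19699189-19699438, minus strand: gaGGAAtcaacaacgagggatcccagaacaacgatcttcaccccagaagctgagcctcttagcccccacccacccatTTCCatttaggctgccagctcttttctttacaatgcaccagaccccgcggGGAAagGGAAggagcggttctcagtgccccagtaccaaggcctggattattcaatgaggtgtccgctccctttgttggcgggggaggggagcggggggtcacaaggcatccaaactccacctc
Lrp1, chr10:127621149-127621398, minus strand: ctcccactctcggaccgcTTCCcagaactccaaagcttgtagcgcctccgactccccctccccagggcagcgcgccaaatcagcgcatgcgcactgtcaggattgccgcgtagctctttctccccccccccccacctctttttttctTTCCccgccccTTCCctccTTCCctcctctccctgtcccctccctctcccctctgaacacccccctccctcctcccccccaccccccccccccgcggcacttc
Each of these windows holds 4 such cores, at 57.2% GC for Apoe and 67.2% GC for Lrp1. The core is common: 93.4% of 32851 promoter windows hold it on either strand, with a median of 3 per window. A longer motif of PU.1, GAGGAAGT or its reverse complement ACTTCCTC, which contains the core, is in 2.44% of all windows and in 0 of the 9 windows of these genes. The consensus direct repeats DR1, read by PPAR with RXR, and DR4, read by LXR with RXR, are in 0.0335% and 0.0152% of all windows on either strand and in 0 of the 9. A match is a description of letters and not of binding, and the absence of one says only that these letters are not in the window.

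Vldlr (ENSMUSG00000024924; chromosome 19, 27216484 to 27254231, plus strand) encodes the receptor that holds particles rich in triglyceride close to the lipase. Its levels were 231, 260 and 231 CPM in control mice and 226, 145 and 207 CPM in aPU.1KO mice. The groups were separate by only the gap from 226 to 231 CPM, and aPU.1KO mouse 2 was the lowest. Means of 241 ± 16.8 and 193 ± 42.7 CPM (SD, n = 3 each) gave a log2 fold change of -0.32 ± 0.17 (SE, edgeR adjusted p = 0.276, DESeq2 adjusted p = 0.279). Adipoq itself was wholly higher in aPU.1KO mice, at 3359 to 3943 CPM against 2448 to 2847 CPM (log2 fold change 0.43, DESeq2 adjusted p = 0.00778, edgeR adjusted p = 0.115), which enters every ratio to it. Set against Adipoq in the same library, Vldlr differed by a mean of -0.77 on the log2 scale, from -3.40, -3.45 and -3.54 to -4.12, -4.57 and -4.02 (exact permutation p = 0.1, adjusted 0.275).

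Cd36 (ENSMUSG00000002944; chromosome 5, 17781690 to 17888801, minus strand), the fatty acid translocase, was at 5389, 5481 and 5122 CPM in control mice. In aPU.1KO mice it was at 6136, 5491 and 5498 CPM. Control mouse 2 and aPU.1KO mice 2 and 3 were nearly level, and only aPU.1KO mouse 1 stood clear of the controls. Means of 5331 ± 186 and 5708 ± 371 CPM (SD, n = 3 each) gave a log2 fold change of 0.10 ± 0.14 (SE, edgeR adjusted p = 0.680), and with scaling by library totals, which put the median of all genes at -0.11, the log2 fold change of Cd36 was -0.02. Relative to Adipoq, Cd36 was lower in all 3 aPU.1KO mice, with log2 ratios of 0.64, 0.67 and 0.71 against 1.14, 0.94 and 0.93 (difference -0.33, exact permutation p = 0.1, adjusted 0.275), with Adipoq, the denominator, higher and Cd36 itself nearly level between the groups. Lpl did not part from Adipoq in this way: its log2 ratio was 2.73, 2.73 and 2.48 in control and 2.34, 2.71 and 2.60 in aPU.1KO mice, with a difference of -0.10 (exact permutation p = 0.5, adjusted 0.6111).

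Apod (ENSMUSG00000022548; chromosome 16, 31296192 to 31314808, minus strand) encodes a lipocalin that binds small lipids and is no close relative of the other apolipoproteins. It rested on few counts, 388, 71 and 92 in the control libraries and 24, 65 and 54 in the aPU.1KO libraries. In CPM these were 5.34, 3.11 and 3.65 against 1.22, 2.94 and 2.56. Separation rested on the small step from 2.94 to 3.11 CPM, between aPU.1KO mouse 2 and control mouse 2. The means of 4.03 ± 1.17 and 2.24 ± 0.90 CPM (SD, n = 3 each) gave the largest fold difference of the 10 genes and the largest standard error, a log2 fold change of -0.86 with 0.37 (edgeR adjusted p = 0.205, DESeq2 adjusted p = 0.149). Against Pdgfra, the log2 ratio of Apod was -2.85, -2.62 and -3.30 in control and -2.90, -1.83 and -2.26 in aPU.1KO mice, overlapping groups with a difference of 0.59 (exact permutation p = 0.3, adjusted 0.4714).

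**Figure D2:**
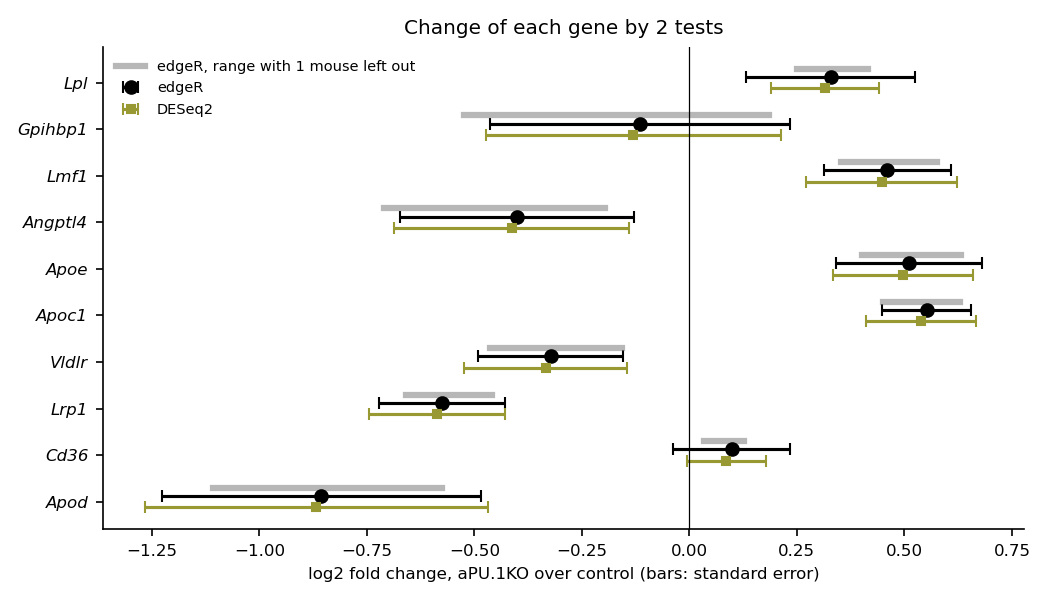
Log2 fold change of each of the 10 genes, aPU.1KO over control (horizontal axis), from edgeR (circles) and DESeq2 (squares) with standard errors, and as grey bars the range of edgeR's value when 1 of the 6 mice is left out. The estimates of both tests lie close together, and of the grey bars only that of Gpihbp1 crosses 0.

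The estimates from edgeR and DESeq2 were close for all 10 genes, 0.33 and 0.32 for Lpl and -0.58 and -0.59 for Lrp1, for example, so the tests differed in the adjusted p and little in the size of the difference. Across the 8 genes with separate groups, control mouse 2 was the control nearest to the aPU.1KO group in 7, and aPU.1KO mouse 2 was the farthest from the controls in 6. Among all 4476 genes with separate groups the same mice held these places in 59.1% and 53.3%. Control mouse 2 was also the control with the lowest macrophage sum, 426 CPM, and the lowest Spi1, and whether that bears on the 8 genes was not tested.

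**Figure D3:**
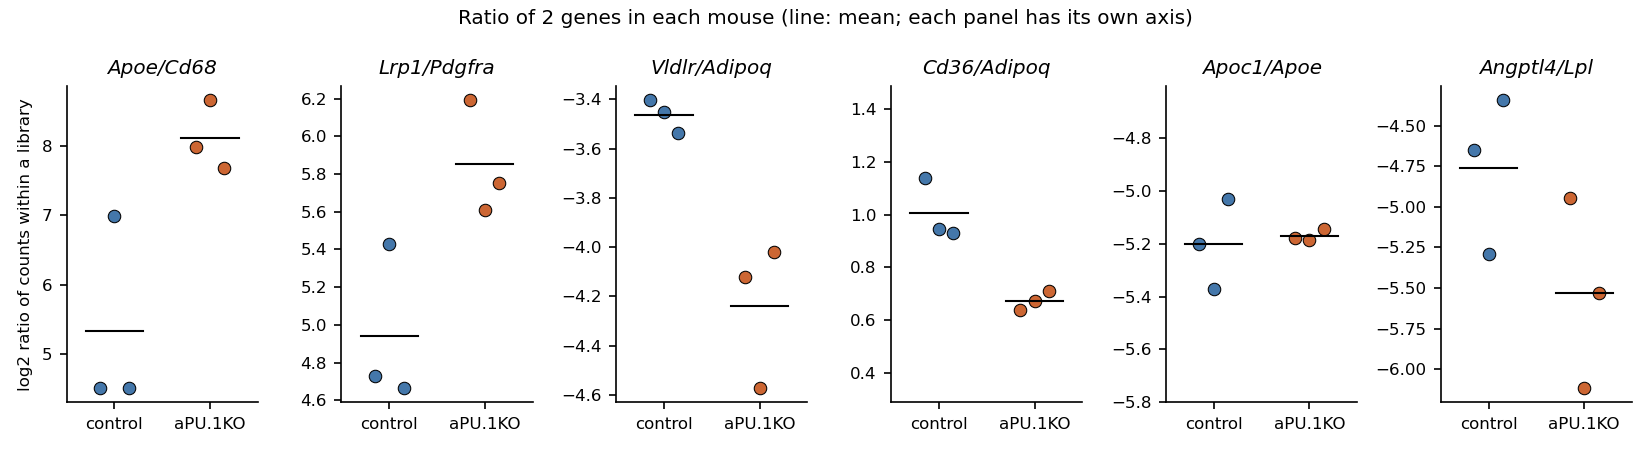
Log2 ratio of the counts of a pair of genes within each library (vertical axis, a separate scale for each panel) in 3 control and 3 aPU.1KO mice, with lines at the group means. The groups are separate for Apoe/Cd68, Lrp1/Pdgfra, Vldlr/Adipoq and Cd36/Adipoq and overlap for Apoc1/Apoe and Angptl4/Lpl.

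Of the 11 ratios, 4 separated the groups: Apoe to Cd68 and Lrp1 to Pdgfra were higher in aPU.1KO mice, and Cd36 to Adipoq and Vldlr to Adipoq were lower. All 4 reached the smallest two-sided p that 3 against 3 mice can give in an exact permutation test, 0.1, and none was below 0.05 after adjustment. These are ratios of counts with no correction for length, so they compare libraries and not the levels of the paired genes.

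Levels can be set side by side between genes only per length of transcript. With the mean length of the coding transcripts of each gene, Lpl led in control mice at 4052 ± 480 CPM per kilobase, followed by Apoe at 2868 ± 442 and Cd36 at 2123 ± 74.2 (SD, n = 3 each). A second tier held Angptl4 at 188 ± 39.1, Lrp1 at 183 ± 20.1 and Apoc1 at 157 ± 7.97 CPM per kilobase, in which the values of Angptl4 and Lrp1, and those of Lrp1 and Apoc1, overlapped between mice. Vldlr followed at 73.8 ± 5.14, Gpihbp1 at 53.6 ± 8.82, Lmf1 at 9.34 ± 1.51 and Apod at 2.57 ± 0.74. In aPU.1KO mice Apoc1 took the fourth place with 230 CPM per kilobase, ahead of Angptl4 at 142 and Lrp1 at 123, and the rest of the order was the same. The order depends on the length. By the longest transcript Lrp1 was at 62.0 CPM per kilobase, below Apoc1 at 128, and Apoe at 1796 and Cd36 at 1568 overlapped. By the union of exons Cd36 at 1485 came before Apoe at 1183 and Lmf1 at 1.31 came last. With that length the control values of Lpl and Cd36 overlapped, as did those of Vldlr and Gpihbp1 and those of Apod and Lmf1. No exon of another gene overlapped the exons of the 10 genes, and no other gene had a transcript with 95% identity or more over 100 bases or more.

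**Figure D4:**
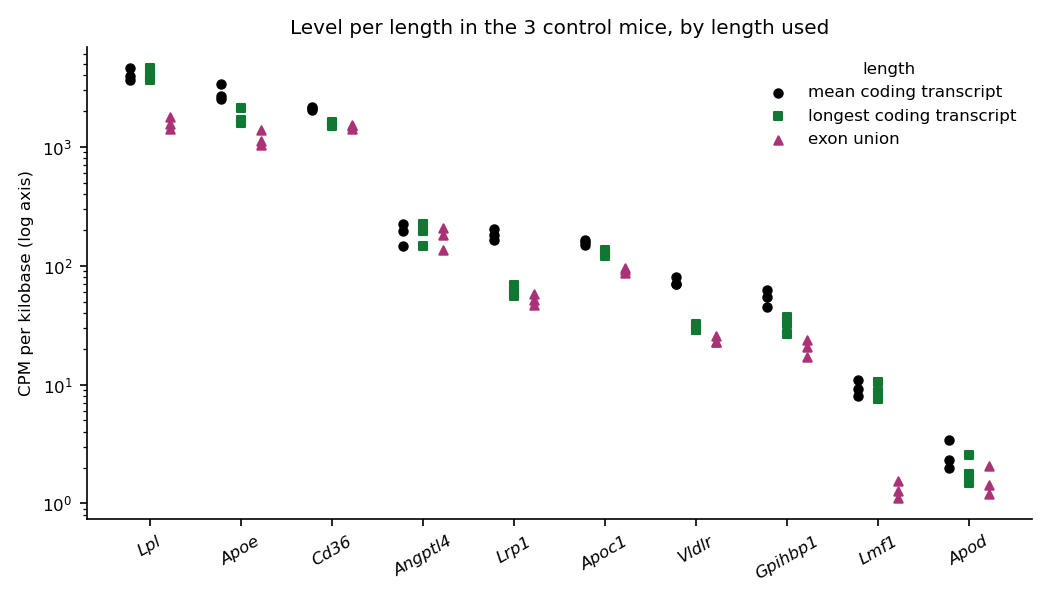
CPM per kilobase (logarithmic axis) of the 10 genes in the 3 control mice, with the length taken as the mean coding transcript (circles), the longest coding transcript (squares) or the union of exons (triangles). Lpl, Apoe and Cd36 hold the first 3 places by every length, and Lrp1 and Lmf1 drop the most when another length is used.

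The genes whose levels over the 6 libraries were most like those of Lpl were Maco1, Dnajc21 and Naa30, with a root-mean-square difference of 0.02, 0.03 and 0.04 in centred log2 CPM, against a median of 0.27 over all genes tested. For Apoe they were Dhrs7, Akap7 and Fdx1, at 0.03, 0.04 and 0.04 against a median of 0.35. All 6 share the separation of the groups with Lpl or Apoe, as their choice by likeness fixed, and their log2 fold changes were 0.34 for Maco1, 0.29 for Dnajc21, 0.31 for Naa30, 0.48 for Dhrs7, 0.53 for Akap7 and 0.50 for Fdx1, and edgeR called none of them. By DESeq2 the 3 most like Apoe had adjusted p of 0.0386, 0.0497 and 0.021, and those most like Lpl were not called. None is an apolipoprotein or a lipase.

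The wider pathway was read from lists of named genes. Over all genes tested, an unadjusted p under 0.05 in edgeR took in 11.9% higher and 13.7% lower, separate groups 16.7% higher and 15.5% lower, and DESeq2's calls 3.69% higher and 7.78% lower. Of 17 genes for maturation, transport and control of the lipase, 0 were called by edgeR. At an unadjusted p under 0.05, 1 was higher and 3 were lower, against 11.9% and 13.7% of all genes, and the median log2 fold change was -0.05. DESeq2 called 1 higher and 2 lower. Angptl8, which takes part in inhibiting the lipase in muscle after feeding, was at 7.02, 7.49 and 7.85 CPM in control mice and at 6.10, 26.5 and 26.1 CPM in aPU.1KO mice, so that aPU.1KO mouse 1 was below the controls and the other two were far above them. Its log2 fold change of 1.40 (standard error 0.50) was called by DESeq2 (adjusted p = 0.0342) and not by edgeR (adjusted p = 0.145). Apoa5, a liver apolipoprotein that favours the action of the lipase, had 42, 11 and 14 counts in the control libraries and 0 in each aPU.1KO library, at least 11.6-fold lower by a floor of 3 counts over the group (edgeR adjusted p = 0.0722). Pcsk7, a proprotein convertase, had a log2 fold change of -0.13 with separate groups. In the angiopoietin-like family 0 of 5 tested genes were called by edgeR, with Angptl6 at a log2 fold change of 0.38 and Angptl1 at -0.59 as the pair with separate groups.

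Among lipoprotein receptors and adaptors, 18 of 21 genes were tested, 0 were called by edgeR, and at an unadjusted p under 0.05 0 were higher and 5 lower, against 11.9% and 13.7% of all genes. The median log2 fold change of this list was -0.33. DESeq2 called 2 lower, against 7.78% of all genes. The scavenger receptor Msr1, a gene of macrophages, was at 20.8, 5.95 and 22.2 CPM in control mice and at 2.49, 1.13 and 3.65 CPM in aPU.1KO mice, a log2 fold change of -2.76 (edgeR adjusted p = 0.0783). Lrp10, a small relative of Lrp1, was at 87.9 to 99.6 CPM against 77.7 to 81.4 CPM, a log2 fold change of -0.22. In 5 of the 18 the groups were separate, with every aPU.1KO mouse lower, which holds for 15.5% of all genes.

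Of 16 listed genes of apolipoproteins and lipoprotein remodelling, 12 were tested and edgeR called 2, both lower. Of these 12, DESeq2 called 6, all lower, against 7.78% lower over the 16280 genes to which it gave an adjusted p. DESeq2 also called Apof lower (adjusted p = 0.0404), a gene left out by edgeR's filter and named after its values were seen. Apoc2, described above, had a log2 fold change of 0.42 with overlapping groups. Apoa1, the main apolipoprotein of high density lipoprotein, fell from 3.54, 4.38 and 3.37 CPM to 0, 0.14 and 0.09 CPM, a log2 fold change of -5.50 (edgeR adjusted p = 0.0268). The aPU.1KO libraries held 0, 3 and 2 counts of Apoa1, none above the floor of 3 counts. Its log2 fold change ran from -6.16 to -4.99 with each mouse left out. Apob fell from 95, 31 and 35 counts to 0 in each aPU.1KO library, at least 28.0-fold lower (edgeR adjusted p = 0.0491). Apoa2 was at 1.98 to 2.63 CPM against 0.09 to 0.59 CPM (edgeR adjusted p = 0.0724). These are liver genes. The summed level of 10 hepatocyte genes was 40.5 to 64.7 CPM in control mice and 17.2 to 26.1 CPM in aPU.1KO mice. That sum includes Apoa1, Apoa2 and Apob themselves. Apoc3, a gene of both lists named after its values were seen, overlapped between the groups (log2 fold change -0.17). It was at 1.17, 1.09 and 1.71 CPM in control mice and at 0.30, 2.89 and 0.28 CPM in aPU.1KO mice. Albumin (Alb) was at 26.0 to 46.1 CPM against 15.9 to 21.9 CPM and transthyretin (Ttr) at 1.94 to 2.67 CPM against 0 to 0.09 CPM, and the part of RNA from liver cells in the fall of Apoa1 and Apob was not tested. Without control mouse 1, edgeR gave Apob an adjusted p of 0.313 and Apoa1 an adjusted p of 0.145. The call of Apoa1 was also lost without control mouse 3 or aPU.1KO mouse 2 or 3, and that of Apob without any mouse other than control mouse 2, and in edgeR with robust dispersion (adjusted p = 0.0502), legacy = FALSE (0.0524) or control library 1 thinned (0.051).

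For the steps after hydrolysis, the 17 genes of fatty acid entry and esterification had a median log2 fold change of 0.09. Again edgeR called 0 of them, and at an unadjusted p under 0.05 it had 4 higher and 1 lower (11.9% and 13.7% of all genes). DESeq2 called 2 higher and 1 lower (3.69% and 7.78% of all genes). Gpat3, an enzyme of the first step of triglyceride synthesis, was at 141, 199 and 120 CPM in control mice and at 199.8, 308 and 199.5 CPM in aPU.1KO mice (log2 fold change 0.62, edgeR adjusted p = 0.171). Lyn, a kinase that signals downstream of Cd36 and is abundant in myeloid cells, was at 44.9 to 57.2 CPM against 26.8 to 40.4 CPM (log2 fold change -0.72, edgeR adjusted p = 0.0854). Of 7 other lipases tested, edgeR called 0 (0.237% of all genes), while DESeq2 called 2 higher and 2 lower (3.69% and 7.78%). Among them Pnpla2, the adipose triglyceride lipase, was at 1251 to 1371 CPM against 1436 to 1974 CPM (DESeq2 adjusted p = 0.0426), and Lipa, the lysosomal lipase that is rich in macrophages, was at 292, 106 and 270 CPM against 97.4, 64.2 and 89.3 CPM (DESeq2 adjusted p = 0.00173). In the fatty acid list 4 genes lay wholly above the controls and 2 wholly below them, as did 16.7% and 15.5% of all genes.

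Of 13 transcription factors known to act on genes of lipid uptake, edgeR called 0, and at an unadjusted p under 0.05 it had 5 higher and 2 lower (11.9% and 13.7% of all genes), with a median log2 fold change of 0.23. DESeq2 called 3 higher, Srebf1, Nr1h3 and Cebpa, the last of these named after its values were seen, and 0 lower. Over all genes DESeq2 called 3.69% higher and 7.78% lower. Srebf1, a factor of lipid synthesis, was at 252, 288 and 255 CPM in control mice and at 350, 481 and 364 CPM in aPU.1KO mice (log2 fold change 0.59, edgeR adjusted p = 0.083, DESeq2 adjusted p = 0.00573). Nr1h3, which encodes the oxysterol receptor LXR alpha that acts on Apoe and Apoc1, was at 101 to 105 CPM against 122 to 139 CPM (log2 fold change 0.34, edgeR adjusted p = 0.0783, DESeq2 adjusted p = 0.00581). Pparg, the main factor of adipocyte identity and of Lpl and Cd36, was at 202 to 251 CPM against 233 to 317 CPM, with overlapping groups (edgeR adjusted p = 0.194). Ppard had a log2 fold change of -0.22, at 27.4 to 28.3 CPM against 22.8 to 24.5 CPM.

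**Figure D5:**
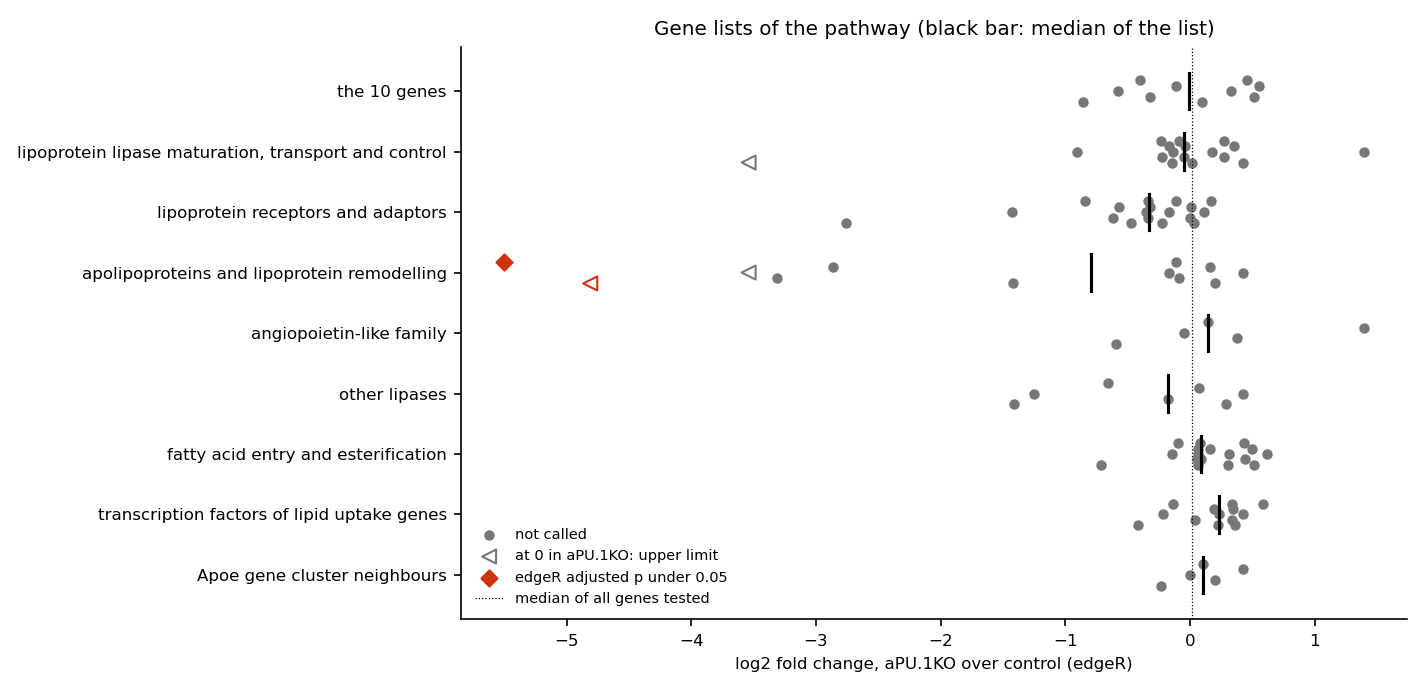
Log2 fold change (edgeR, aPU.1KO over control) of each tested gene of the 10 genes and of 8 pathway lists, with black bars at the median of a list and a dotted line at the median of all genes tested. The calls, in red, are Apoa1 and Apob, open triangles are upper limits for genes with 0 counts in aPU.1KO libraries, and the 10 genes lie between -0.86 and 0.55.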

How the data were processed

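RNA of the epididymal adipocyte fraction was sequenced, with 3 mice of each genotype. The estimated counts deposited by the authors come from Salmon, which assigns reads to transcripts, and were summed to genes, and the deposited values are whole numbers without normalization, so no rounding was needed. GRCm38 and FastQC are named in the submitters' processing notes, and the Salmon version and annotation are not given in the sources used here. Genes were matched to symbols in GENCODE M21 (35031 of 35122 matched, and 0.0367% of counts fell in the rest), and coordinates are from that annotation. No libraries were duplicates, since within groups the chi-square per degree of freedom was at least 20.4. The labels name no separate batch, and the paper gives an age of more than a year.

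The comparison of the genotypes used edgeR 4.0.16 under R 4.3.3 (filterByExpr, TMM, glmQLFit with its defaults, glmQLFTest, Benjamini-Hochberg adjustment over 13925 genes). Log2 fold changes are of aPU.1KO relative to control, CPM used TMM factors, and a prior count of 0.5 was added in ratios, which were tested with two-sided exact permutation tests. DESeq2 1.42.0 and limma-voom (limma 3.58.1) were alternatives, as were other scalings and filters, robust dispersion, legacy = FALSE, control library 1 thinned to a share of 0.329 and leaving out each mouse. Scripts were tested on simulated data. Python 3.11.15 and matplotlib 3.10.9 drew the figures. The 10 genes and the lists were chosen with earlier results of these data known. The genes named are the 10, the genes of the ratios, the first 2 of each marker list, the 3 most like Lpl and Apoe, and from each pathway list those with an adjusted p under 0.05, the extremes of log2 fold change among genes with separate groups and up to 2 partners or paralogs of the 10 genes. Results for some listed genes are not given here.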

Additional observations from a re-analysis of the deposited data

How the results depend on the processing

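Of the 10 genes, 8 kept the direction of their log2 fold change in all 17 settings. Cd36 was at -0.0223 and Tomm40 at -0.021 with library totals, a scaling that put the median of all genes at -0.11 in place of 0.01, and Msln was at 0.17 with limma-voom and at 0.011 with legacy = FALSE. With each mouse left out in turn, log2 fold changes spanned 0 for Gpihbp1 (-0.52 to 0.19), Acta2 (-0.44 to 0.32), Dpp4 (-0.91 to 0.30), Msln (-0.37 to 0.49) and Upk3b (-1.09 to 0.0222), as did the differences in log2 ratio for Apoc1 to Apoe (-0.0526 to 0.12), Apoe to Adipoq (-0.0434 to 0.17) and Lpl to Adipoq (-0.18 to 0.0102). The number of the 10 genes called was 3 with DESeq2 and 0 to 1 with mice left out, the 1 being Apoc1 without control mouse 2. Over all genes, 33 calls became 5 with a minimum of 10 counts in every library, 146 with no filter, 1867 with DESeq2, and 0 to 1193 with mice left out. The 0 was edgeR's count without control mouse 1, where 1718 genes had an unadjusted p under 0.05, and the 1193 its count without control mouse 2. The cause was not tested. No paired analysis was possible because the labels give each mouse its own number, and which mice were of the same litter is not given in the sources used here. With 3 mice per group and libraries of unequal depth, a difference that missed the threshold is not shown to be absent, and Apod rested on as few as 24 counts.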

Other observations

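The markers of the remaining cell types were read in the same way. The first endothelial markers, Pecam1 and Cdh5, were at 109 to 155 and 148 to 222 CPM in control mice and at 66.6 to 129 and 88.0 to 168 CPM in aPU.1KO mice, with overlapping groups, and 0 of the 10 endothelial genes had separate groups. Of the macrophage markers, Cd68 was at 23.4 to 105 CPM against 10.1 to 15.2 CPM and Adgre1 at 26.2 to 129 CPM against 7.96 to 21.4 CPM. In all, 10 of 11 macrophage genes, 7 of 10 stromal genes and 3 of 6 mural genes were wholly lower in aPU.1KO mice, which holds for 15.5% of all genes tested, and the macrophage gene that overlapped was Cd163 (log2 fold change 0.29). DESeq2 called 10, 6 and 3 genes of these lists lower, against 7.78% of all genes. By edgeR, Mrc1 (adjusted p = 0.0389) and Pdgfrb (adjusted p = 0.0491) were called lower, against 0.18% of all genes. Like Cd163, Mrc1 and Pdgfrb are named after their values were seen. The mural gene Rgs5 was at 213 to 313 CPM against 116 to 197 CPM, and Acta2 overlapped, at 102 to 252 CPM against 47.5 to 217 CPM. The stromal gene Dpp4 also overlapped, at 6.23 to 11.2 CPM against 1.94 to 14.4 CPM. Mesothelial genes were scarce, with Msln at 0.48 to 1.75 CPM against 0.95 to 1.04 CPM and Upk3b at 1.27 to 7.05 CPM against 1.83 to 3.03 CPM. Of 4 epididymal genes Lcn5 and Lcn8 were at 0 counts in all 6 libraries, while Crisp1 had 27, 1 and 23 counts in control and 11, 0 and 15 in aPU.1KO libraries, and Adam7 had 0 to 3 counts in each. The lymphocyte genes Cd3e and Cd3g had too few counts to be tested, at 0.04 to 0.56 and 0.22 to 0.59 CPM in control mice and at 0 to 0.23 and 0.05 to 0.28 CPM in aPU.1KO mice.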
